A study of Mus musculus with 8 samples.

Results

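The genes described here are the mouse zinc finger protein genes with the lower Zfp numbers, that is, the protein-coding genes of the GENCODE M21 annotation that are named Zfp followed by a whole number from 1 up to, but not including, 500. The rule used the name alone and no measured value, but it was set with earlier results of these data known. Of the 21938 protein-coding genes on chromosomes 1 to 19, X and Y, 162 carry such a name. A further 203 genes with Zfp numbers of 500 and above serve as the nearest comparison. Binding was measured by chromatin immunoprecipitation and sequencing (ChIP-seq), in which an antibody pulls down a protein with the DNA fixed to it, and places where the sequenced fragments pile up are called peaks. All cells were E14Tg2a, a mouse stem cell line, used between passages 37 and 40. Embryonic stem cells (ESCs) were grown with leukemia inhibitory factor (LIF), which keeps them pluripotent, and were assayed for FGFR1, RXRα (called RXR here) and Nur77, with 1 library each. Neuronal cells (NCs) were LIF-free monolayers that had received 1 µM retinoic acid (RA) for 48 h. They were assayed for FGFR1 in 2 libraries, called replicates 1 and 2 (the latter labelled as a second experiment), and for RXR, Nur77 and the histone variant H3.3 in 1 library each. FGFR1 is a fibroblast growth factor receptor that also enters the nucleus, RXR and Nur77 are nuclear receptors that bind DNA, and H3.3 is a histone placed into chromatin outside replication. All 8 libraries are from a single cell line, and cells of several culture plates were pooled for each immunoprecipitation. The peak lists hold no expression values, so the pluripotent and neuronal labels were not checked against marker genes here.

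Most C2H2 zinc finger proteins bind DNA through a row of short modules, each holding a zinc ion between a pair of cysteines and a pair of histidines. In many of them a KRAB domain at the start of the protein recruits the corepressor KAP1 (encoded by Trim28), which brings histone methylation and silences transposons and imprinted loci in ESCs. These genes multiplied by tandem duplication, lie in clusters, and usually encode the whole finger array in the last exon. In several cell types the array exons are known to be packed in silent chromatin that holds ATRX, a partner in placing H3.3, which is why the last exon was counted apart from the promoter.

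Of the 162 genes, 153 encoded at least 1 C2H2 finger by a pattern search of the longest coding sequence, with a median of 11 fingers and at most 33, in Zfp142 and Zfp462. The other 9 had no match to this pattern, which misses fingers of other kinds or spacing. Among them were Zfp36, an mRNA decay factor, and Zfp346, which binds double-stranded RNA. A KRAB pattern was found in 82 genes. The pattern is strict, and it missed Zfp57, a KRAB protein that guards imprints. Of 1716 fingers, 84.9% lay in the last exon. The last exons had a median length of 2649 bp, against 1119 bp for all protein-coding genes. Clusters of at least 3 of these genes with gaps of at most 200 kb held 56 of them in 9 places, and 42 of the 56 had the KRAB pattern. The largest were 12 genes on chromosome 13, including Zfp455 and Zfp273, and 2 groups of 11 on chromosome 7.

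Promoters are shown for 6 of these genes, as the stretch from 100 bases before to 30 bases after the RefSeq start (build GRCm38, which is mm10), 130 bases each, 5′ to 3′ on the strand of the gene. Zfp3, Zfp28, Zfp292, Zfp329 and Zfp346 are shown because they had a promoter peak in all 8 libraries, and Zfp207 because it had the strongest promoter peak of all members. Capitals mark exact matches, on either strand, to 1 of 7 words searched: CCGGAAGT (ETS), GGGCGGGG (GC box), CACGTG (E-box), TGACGTCA (CRE), CAAGATGGC (YY1), AGGTCA (nuclear receptor core) and a word of the factor NRF1, which is the one in capitals in Zfp329. The windows are chr11:70764347-70764476 for Zfp3 (plus strand), chr7:6383218-6383347 for Zfp28 (plus), chr4:34882919-34883048 for Zfp292 (minus), chr7:12818831-12818960 for Zfp329 (minus), chr13:55105222-55105351 for Zfp346 (plus) and chr11:80383179-80383308 for Zfp207 (plus).
Zfp3: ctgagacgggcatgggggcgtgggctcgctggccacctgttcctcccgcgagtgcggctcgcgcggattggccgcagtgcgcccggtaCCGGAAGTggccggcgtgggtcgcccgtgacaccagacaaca
Zfp28: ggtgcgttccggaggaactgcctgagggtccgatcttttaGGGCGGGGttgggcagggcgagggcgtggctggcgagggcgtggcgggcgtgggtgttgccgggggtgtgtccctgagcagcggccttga
Zfp292: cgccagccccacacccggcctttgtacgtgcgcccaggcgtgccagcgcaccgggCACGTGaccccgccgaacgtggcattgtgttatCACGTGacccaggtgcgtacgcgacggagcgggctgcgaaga
Zfp329: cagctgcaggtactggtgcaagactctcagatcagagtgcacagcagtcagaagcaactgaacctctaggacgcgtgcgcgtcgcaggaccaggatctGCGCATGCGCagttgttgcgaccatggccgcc
Zfp346: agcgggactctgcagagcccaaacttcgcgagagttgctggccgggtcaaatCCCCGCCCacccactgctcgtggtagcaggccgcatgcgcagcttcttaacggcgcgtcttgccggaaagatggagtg
Zfp207: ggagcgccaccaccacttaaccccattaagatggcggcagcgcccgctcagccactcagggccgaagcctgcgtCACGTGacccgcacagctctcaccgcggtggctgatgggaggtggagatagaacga

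The capitals mark an ETS word in Zfp3, a GC box in Zfp28 and, on the other strand, in Zfp346, a pair of E-boxes in Zfp292, the NRF1 word across the start of Zfp329, and an E-box in Zfp207. At Zfp329 the printed window was overlapped by a peak in all 8 libraries, and 6 of their 8 summits lay inside it. At Zfp292 it held 6 summits, at Zfp28 5, at Zfp3 4 and at Zfp346 3, and at Zfp207 it held the summits of all 5 libraries with a peak. Zfp180, the sixth gene with a promoter peak in every library, had its summits 51 to 319 bp downstream of the nearest start. These matches describe the letters only.

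The first question was how many of the 162 promoters carried a peak. A promoter peak was one that overlapped by at least 20 bp the window of 1000 bp either side of any annotated transcript start. In ESCs, 30 promoters (18.5%, exact 95% interval 12.9 to 25.4) had an FGFR1 peak, where 17.0% of all protein-coding genes did. RXR had peaks at 88 (54.3%, 46.3 to 62.2) against 42.5% of all genes, and Nur77 at 51 (31.5%, 24.4 to 39.2) against 25.5%. In NCs, FGFR1 had peaks at 98 (60.5%, 52.5 to 68.1) in replicate 1 against 50.7% of all genes, and at 133 (82.1%, 75.3 to 87.7) in replicate 2 against 49.6%. RXR had peaks at 37 (22.8%, 16.6 to 30.1) against 23.3%, Nur77 at 55 (33.95%, 26.7 to 41.8) against 25.8%, and H3.3 at 28 (17.3%, 11.8 to 24.0) against 15.5%. FGFR1 replicate 2 stood furthest from its background. In that library the Zfp genes numbered 500 and above had peaks at 58.1%, and in replicate 1 at 47.8%. Their promoter windows more often held repeated sequence. Under 90% of the 50-base words were unique in the genome in 32.0% of them, against 14.2% for the 162 genes. The authors discarded reads with more than 1 place, and the part of this in the difference was not tested. These intervals cover counting error only and treat genes as independent, which clustered genes are not. No test across conditions was run, since 6 of the 7 groups had 1 library.

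**Figure D1:**
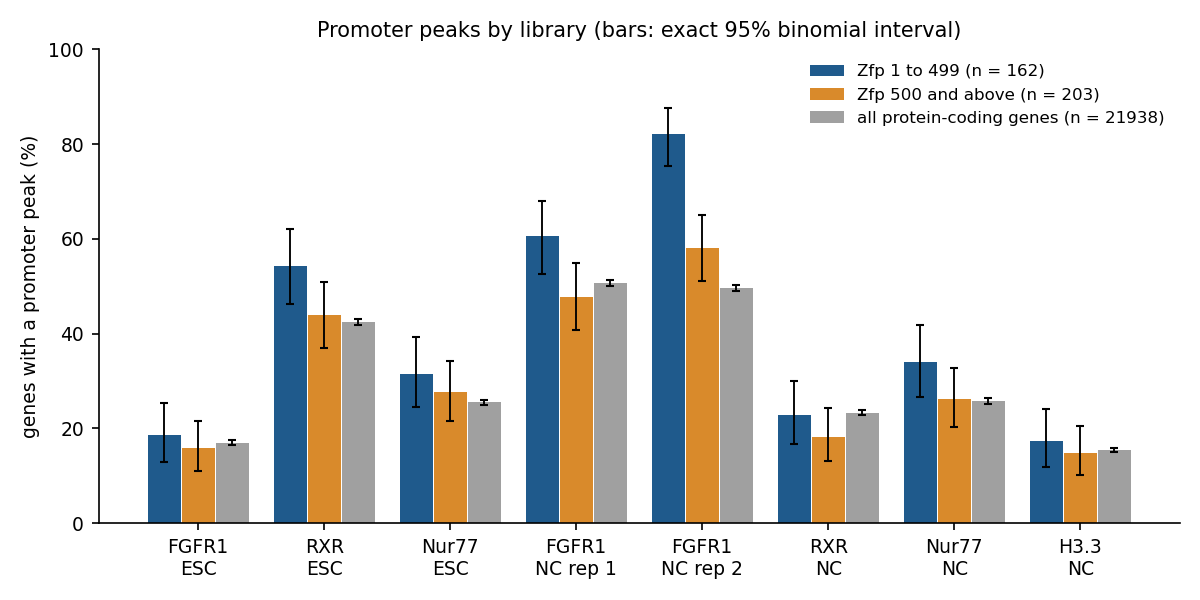
Percentage of genes with a promoter peak (vertical axis) in each library (horizontal axis), for the 162 Zfp genes below 500, the 203 Zfp genes from 500 and all 21938 protein-coding genes; error bars are exact 95% binomial intervals. The blue bar of FGFR1 in NC replicate 2, at 82.1%, lies well above the grey one at 49.6%, while in FGFR1 ESC, RXR NC and H3.3 NC the interval of the Zfp genes includes the value of all genes.

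From ESCs to NCs the share with FGFR1 went from 18.5% to a mean of 71.3% ± 15.3 (SD, n = 2), a difference of 52.8 percentage points that was larger than the spread between the replicates and positive in both (42.0 and 63.6). All genes moved the same way, from 17.0% to 50.7% and 49.6%. With the FGFR1 lists cut to the 11378 peaks of ESCs, the mean FGFR1 difference at the Zfp promoters was 33.3 points, mostly from replicate 2. This cut left most of the 14082 peaks of replicate 2 but a minority of the 46137 of replicate 1. The share was then 18.5% in ESCs, 25.3% in replicate 1 (all genes 18.9%) and 78.4% in replicate 2 (all genes 44.7%). Of the 30 promoters with FGFR1 in ESCs, 28 also had it in replicate 1 and 29 in replicate 2, while 70 and 104 promoters had it only in NCs. RXR went the other way, from 88 to 37 promoters, 32 of them shared, a difference of -31.5 points. The RXR library from NCs was much shallower, however, with a background of 1.87 fragments per kb against 7.09, and with the ESC library scaled to the depth of the NC library RXR had peaks at 16 promoters (9.88%) in ESCs, so that the difference turned to 12.96 points. Over all genes RXR went from 42.5% to 23.3% as deposited, and had 7.37% in ESCs after this scaling. Nur77 differed by 2.47 points, less than its counting error, with 29 promoters shared, 22 found in ESCs only and 26 in NCs only.

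Depth and peak shape differed between libraries. The lists held 10634 to 46137 peaks, and the background density, worked out from fold and −log10 p and used here as the measure of depth, ran from 1.27 fragments per kb for H3.3 to 7.09 for RXR in ESCs. It was 4.17 and 6.78 for the FGFR1 replicates in NCs. The median peak was 89 to 140 bp wide in 7 libraries, with 9 to 12 fragments under the summit. In FGFR1 replicate 2 it was 311 bp wide with 27 fragments. Lists longer than the FGFR1 list from ESCs (11378 peaks) were also limited to that many of their strongest peaks. Replicate 2 then had peaks at 127 of the promoters (78.4%, all genes 44.7%) and replicate 1 at 41 (25.3%, all genes 18.9%). The full lists held 14082 peaks in replicate 2 and 46137 in replicate 1, so the limit removed far more of replicate 1. It therefore cannot show which replicate is the more robust.

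The FGFR1 replicates were then compared gene by gene. Both had a peak at 93 of the 162 promoters, replicate 1 alone at 5 (Zfp46, Zfp65, Zfp112, Zfp395 and Zfp423), replicate 2 alone at 40, and neither at 24. Thus 94.9% of the promoters with a replicate 1 peak had a replicate 2 peak, against 77.8% over all genes, and at 82 of the 93 the peaks overlapped. The 40 promoters found by replicate 2 alone were a larger share of the group (24.7%) than of all genes (10.2%). They were not weak in that library, with a median −log10 p of 20.3 against 24.5 for the 93 found by both. They included Zfp42, known as Rex1 and used as a marker of the pluripotent state, Zfp296, a factor used in reprogramming, Zfp335, needed in neural progenitors, and Zfp91 and Zfp189, and 22 of the 40 had the KRAB pattern. Of the 24 with neither, 18 had the KRAB pattern and 9 had promoter windows with under 90% unique words.

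What the promoters shared beyond the name was examined by base composition. The ratio of observed to expected CpG in the promoter windows had a median of 0.397 in the Zfp genes and 0.362 in all genes. It was below 0.25 in 8 Zfp genes (4.94%) but in 29.5% of all genes, and of all promoters below 0.25 RXR in ESCs had peaks at 4.78% and FGFR1 replicate 2 at 4.23%. Of the 8 Zfp promoters below 0.25, RXR in ESCs had peaks at 2 and the FGFR1 replicates at 0. Within the middle band, from 0.25 to 0.5, RXR in ESCs had peaks at 50.5% of 107 Zfp promoters (40.6 to 60.3) and 52.3% of all promoters of that band, and FGFR1 replicate 1 at 57.9% (48.0 to 67.4) and 63.2%. In the band of 0.5 and above the values were 68.1% of 47 (52.9 to 80.9) and 69.0% for RXR, and 76.6% (62.0 to 87.7) and 78.3% for replicate 1. In these 2 libraries the Zfp promoters of the middle and upper bands were thus not above other promoters of the same band. In FGFR1 replicate 2 they were, with 81.3% (72.6 to 88.2) against 64.7% in the middle band and 97.9% (88.7 to 99.95), or 46 of 47, against 75.7% in the upper band. Nur77 in ESCs had peaks at 32.7% of Zfp promoters (all genes 31.2%) in the middle band and 29.8% (40.9%) in the upper. In NCs Nur77 had 34.6% (31.5%) and 36.2% (40.4%), and RXR 21.5% (28.3%) and 29.8% (38.15%). FGFR1 in ESCs had 13.1% (20.2%) and 34.04% (29.25%), and H3.3 14.02% (18.05%) and 27.7% (26.96%). The Nur77 excess was thus small in the middle band and absent in the upper. In each case the exact interval of the Zfp genes included the value of all genes.

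**Figure D2:**
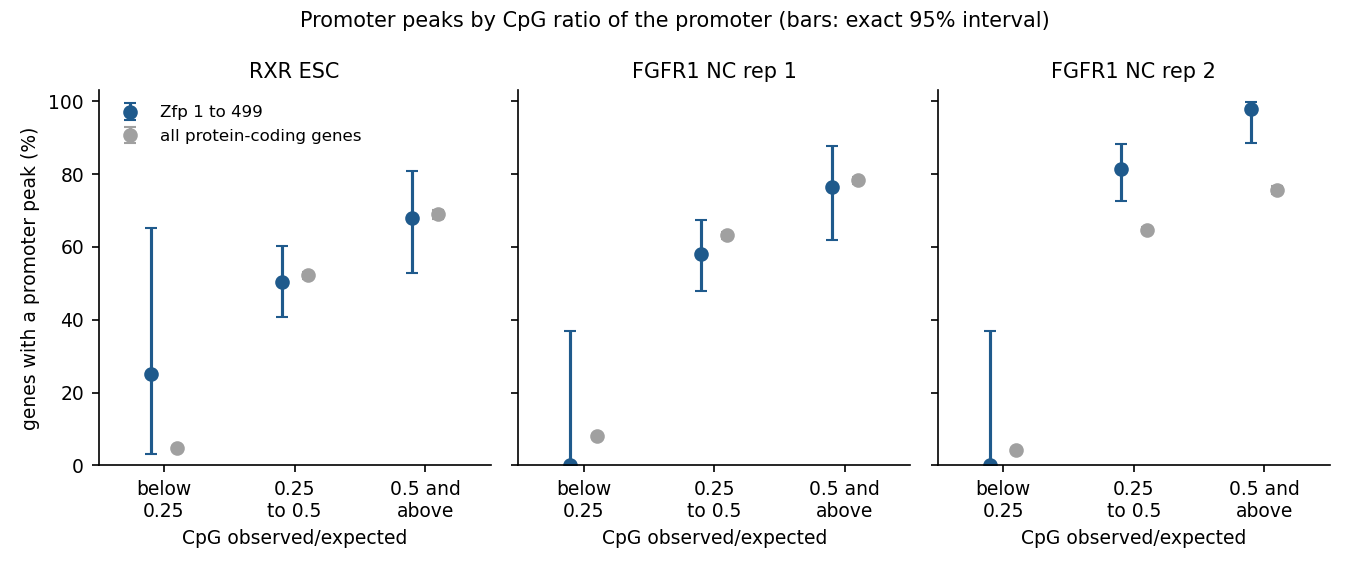
Percentage of genes with a promoter peak (vertical axis) by the observed/expected CpG ratio of the promoter window (horizontal axis) in 3 libraries; points are the share, bars exact 95% intervals, blue for the Zfp genes below 500 and grey for all protein-coding genes. Blue and grey points nearly coincide above 0.25 in RXR ESC and FGFR1 NC replicate 1, and blue lies above grey in replicate 2, at 81.3% and 97.9% against 64.7% and 75.7%.

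Genes with and without the KRAB pattern were then set side by side. RXR in ESCs had peaks at 53.7% of the 82 KRAB genes and at 55.0% of the 80 others. FGFR1 had peaks at 51.2% (39.9 to 62.4) and 70.0% (58.7 to 79.7) in replicate 1 and at 74.4% (63.6 to 83.4) and, 72 of 80, 90% (81.2 to 95.6) in replicate 2. RXR in NCs had them at 14.6% (7.80 to 24.2) and 31.3% (21.4 to 42.6), and H3.3 at 13.4% and 21.3%. KRAB genes had the lower share in all 5 NC libraries. In ESCs they were also lower for FGFR1, at 15.9% against 21.3%, and slightly lower for RXR. For Nur77 in ESCs they were higher, with 27 of 82 against 24 of 80. The intervals of the pairs overlapped, but overlap of separate intervals does not measure a difference. The differences were not tested. Among all 289 protein-coding genes with the pattern, FGFR1 replicate 2 had peaks at 52.6%. Mappability lies beside this difference. Reads with more than 1 place in the genome were discarded by the authors, and 23 of the 162 genes (14.2%) had promoter windows in which under 90% of the 50-base words were unique, against 13.8% of all genes. Of these 23, FGFR1 replicate 2 had peaks at 13, replicate 1 at 6, and FGFR1 in ESCs and H3.3 at 0, which allows a share of up to 14.8% by the exact interval. The part of mappability in the KRAB difference was not tested.

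Counts by cluster rest on few genes and were not tested. On chromosome 13 the 12 genes from Zfp455 to Zfp273 (67194506 to 67827002) had FGFR1 peaks at 5 promoters in replicate 2 and 4 in replicate 1, RXR peaks at 7 in ESCs and 1 in NCs, and no H3.3 peak. In this cluster Zfp429, Zfp456, Zfp457 and Zfp458 had promoter windows with only 83.6%, 77.5%, 82.6% and 78.8% unique words, and the part of this in its counts was not tested. The 11 genes around Zfp180 and Zfp235 on chromosome 7 (24081924 to 24515682) had FGFR1 at 9 in replicate 2 and 4 in replicate 1, and RXR at 8 in ESCs and 1 in NCs. The 11 genes from Zfp84 to Zfp146 on the same chromosome (29768552 to 30169750) included 5 of the 30 promoters with FGFR1 in ESCs. All 5 genes around Zfp329 and Zfp324 (12804977 to 12985714) had FGFR1 in both replicates. These clusters were picked from the 9. Of all 56 clustered genes, 58.9% had FGFR1 in replicate 1 and 76.8% in replicate 2. Among the members outside clusters the shares were 61.3% and 84.9%. RXR in NCs was also lower in clusters, at 16.1% against 26.4%. In ESCs the clustered genes were higher, at 21.4% against 16.98% for FGFR1 and 60.7% against 50.9% for RXR.

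Summits lay close to the start. For the strongest promoter peak of each gene, the median position ran from 11.5 bp downstream of the nearest start in FGFR1 replicate 1 and 15 bp in replicate 2 to 71.5 bp for FGFR1 in ESCs and 81 bp for RXR in NCs, and 80.4% to 92.5% of summits were within 250 bp of a start. In ESCs 24 of the 30 FGFR1 summits were downstream of the start, against 55.1% over all genes. The median over all genes was 8 bp there and 5 to 30 bp in every library, so that in 5 libraries, the RXR and Nur77 libraries and FGFR1 in ESCs, the Zfp summits lay further into the gene than usual. In each library 0% to 10.1% of the promoter peaks at Zfp genes were also within 1000 bp of the start of another protein-coding gene.

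**Figure D3:**
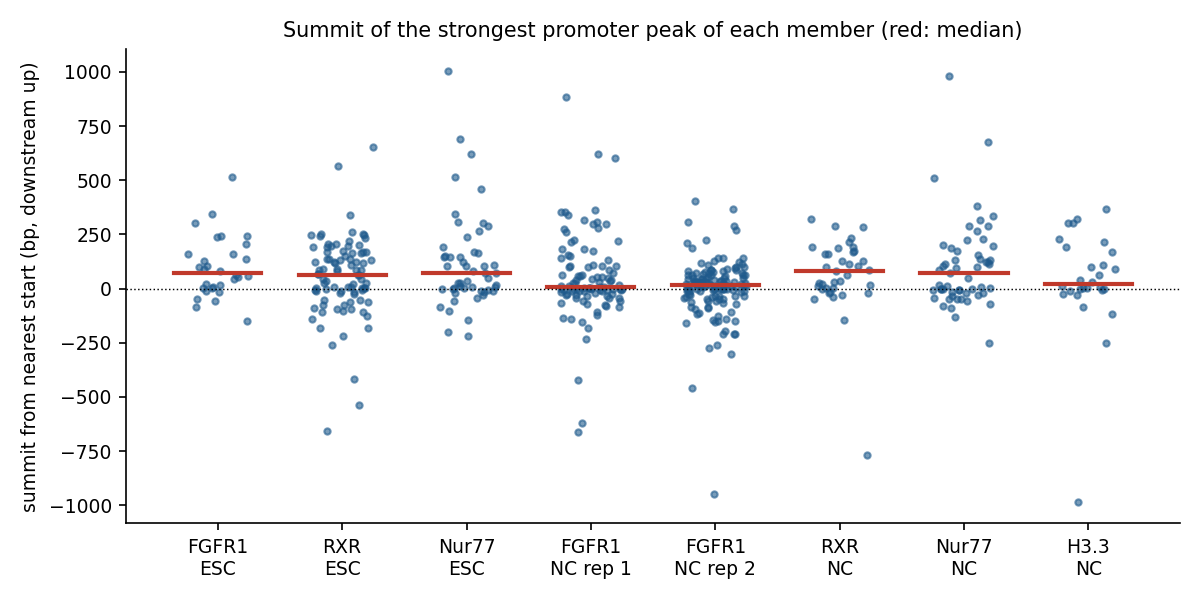
Distance in bp from the nearest transcript start to the summit (vertical axis, downstream upwards) of the strongest promoter peak of each Zfp gene below 500, by library; each point is a gene and red lines are medians. Points gather within 250 bp of the start, with medians of 11.5 and 15 bp in the FGFR1 NC libraries and 63.5 to 81 bp in the RXR and Nur77 libraries.

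Sequence words were counted next. The RefSeq promoter table, with 250 bases before and 50 after each start, matched 133 of the 162 genes by symbol and 16522 of all genes. The ETS word occurred in 21 of the 133 (15.8%), against 5.94% of all genes. The NRF1 word and the CRE word each occurred in 7 (5.26%), against 1.53% and 2.64%. The GC box was found in 28 (21.1%) against 27.1%, the E-box in 7 (5.26%) against 9.18%, the nuclear receptor core in 17 (12.8%) against 16.4%, and the YY1 word in 4 (3.01%) against 1.70%. Around the summits, in 100 bp, AGGTCA was in 3 of 88 RXR windows from ESCs (3.41%, all genes 3.84%) and in 2 of 37 from NCs (5.41%, all genes 3.44%). The NRF1 word was in 22 summit windows over the 8 libraries, all at 6 genes, Zfp30, Zfp82, Zfp180, Zfp236, Zfp248 and Zfp329. In the H3.3 library it was in 4 of 28 windows (14.3%), against 2.15% over all genes, its highest share in any library. In the same windows the GC box was in 4 (all genes 7.81%), and the E-box and AGGTCA in 3 each (6.24% and 3.27%). The ETS word was in 0 of these 28 and 0 of 30 for FGFR1 in ESCs. It was in 6 of 98 (6.12%, all genes 2.59%) in FGFR1 replicate 1 and 5 of 133 (3.76%, all genes 3.29%) in replicate 2.

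Binding of FGFR1 together with the receptors was counted within each state. In ESCs, 24 of the 30 FGFR1 promoters had RXR or Nur77 as well, 17 of them both, and 6 had FGFR1 alone, which over all genes was 10.6% of FGFR1 promoters. Of the 97 promoters with either receptor in ESCs, 73 (75.3%, all genes 67.9%) had no FGFR1 peak. Of the 69 promoters with either receptor in NCs, 8 (11.6%, all genes 12.3%) had no FGFR1 peak in replicate 1 and 2 (2.90%, all genes 22.6%) had none in replicate 2. With replicate 1 this share was near that of all genes, while in ESCs it was higher for the Zfp genes and with replicate 2 it was lower. All 37 promoters with RXR in NCs had FGFR1 in replicate 2 (all genes 80.02%) and 35 (94.6%, all genes 90.9%) had it in replicate 1. Of the 55 with Nur77, 53 (96.4%, all genes 78.7%) had it in replicate 2 and 47 (85.5%, all genes 89.2%) in replicate 1. FGFR1 without either receptor made up 37 of 98 promoters (37.8%, all genes 38.5%) in replicate 1 and 66 of 133 (49.6%, all genes 44.5%) in replicate 2. H3.3 followed the same pattern, since all 28 of its promoters had FGFR1 in replicate 2 and 26 in replicate 1. Over all genes, 80.8% of H3.3 promoters had FGFR1 in replicate 2 and 94.5% in replicate 1.

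Counted over the 8 libraries, 18 of the 162 promoters (11.1%) had no peak in any, against 34.5% of all genes. Peaks in 7 libraries were found at 8 promoters (4.94%, all genes 5.17%) and in all 8 at 6 (3.70%, all genes 2.90%), near the shares of all genes. No gene of the list with known roles was among the 18. The highest values came from FGFR1 replicate 2, at Zfp207 (−log10 p 79.4, 76 fragments at the summit), Zfp346 (75.4) and Zfp11 (62.7). In replicate 1 they were Zfp329 (42.2), Zfp292 (34.97) and Zfp445 (32.5), and in ESCs Zfp329 (17.7), Zfp212 (14.5) and Zfp382 (13.9). For RXR they were Zfp148 (19.8), Zfp157 (18.9) and Zfp202 (17.5) in ESCs, and Zfp346 (17.4), Zfp12 (17.3) and Zfp3 (17.0) in NCs. The RXR peak at Zfp346 lay at -766 bp from another annotated start and held an alternating purine-pyrimidine tract. For Nur77 they were Zfp92 and Zfp329 (14.7 each) and Zfp87 (14.5) in ESCs, and Zfp423 (19, on such a tract), Zfp157 (18.7) and Zfp207 (17.4) in NCs. H3.3 had its strongest promoter peaks at Zfp292 (14.7), Zfp9 (14.3) and Zfp266 (13.8).

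The 6 genes found in every library are described by their −log10 p values in the order FGFR1, RXR and Nur77 in ESCs, then FGFR1 replicates 1 and 2, RXR, Nur77 and H3.3 in NCs. Zfp329 had 17.7, 10.4 and 14.7, then 42.2, 42.2, 16.7, 17.1 and 11.2. Zfp292 had 12.9, 13.6 and 10.9, then 34.97, 44.3, 8.0, 11 and 14.7. In both replicates of FGFR1 in NCs these 2 genes lay far above the median of Zfp promoter peaks, which was 13.5 in replicate 1 and 22.5 in replicate 2. Zfp346 had 12.2, 8.5 and 6.8, then 14.6, 75.4, 17.4, 9.4 and 6.7. Zfp3 had 9.2, 15.6 and 10.8, then 13.7, 21.3, 17.0, 16.3 and 6.4. Zfp28, which has the KRAB pattern and 14 fingers, had 10.5, 13.7 and 9.2, then 19.8, 10.05, 12.2, 11.97 and 13.05. Zfp180 had 10.3, 9.3 and 12.5, then 16.3, 12.1, 10.6, 10.1 and 7.9. At Zfp28 the replicate 2 peak lay upstream and did not overlap the others, and at both Zfp28 and Zfp180 it was below that library's median. Depths differ between libraries, so these values rank peaks within a list and not between lists.

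**Figure D4:**
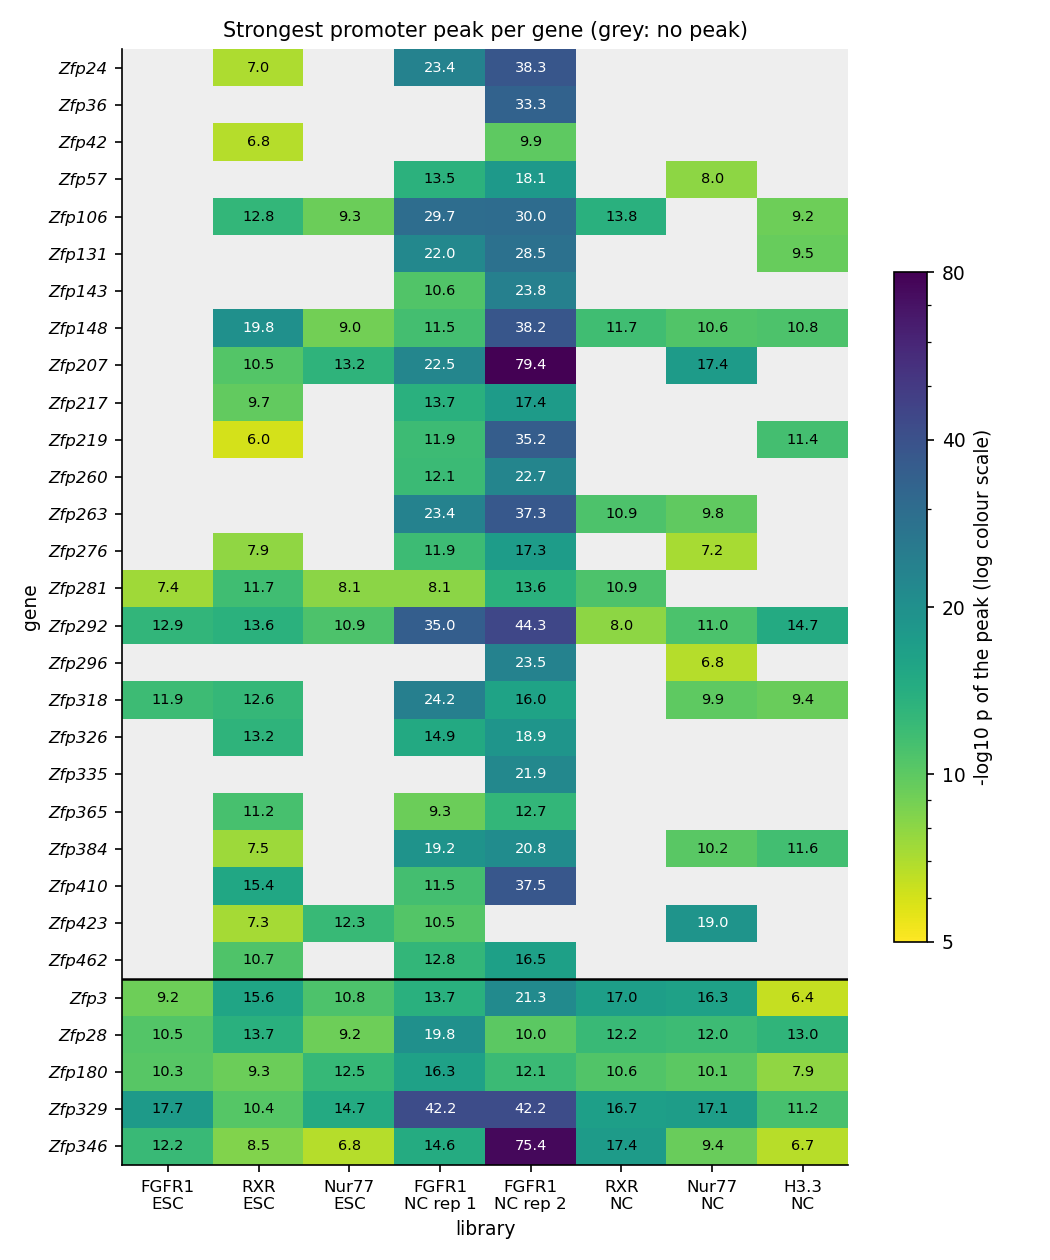
Deposited −log10 p of the strongest promoter peak (colour on a log scale, value printed) for the 25 genes with known roles and, below the line, 5 further genes with a peak in all 8 libraries; rows are genes, columns are libraries and grey means no peak. The FGFR1 NC columns are the most filled, with 21 and 24 of the 25 genes, and the FGFR1 ESC column has 3.

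A list of 25 genes with known roles had promoter peaks for FGFR1 at 3 in ESCs (Zfp281, Zfp292 and Zfp318), and at 21 and 24 in the NC replicates. RXR had them at 17 in ESCs and 5 in NCs, Nur77 at 6 and 10, and H3.3 at 7. For FGFR1 these counts compare with 17.0%, 50.7% and 49.6% of all genes and 18.5%, 60.5% and 82.1% of the 162. For RXR the shares of all genes were 42.5% and 23.3%, for Nur77 25.5% and 25.8%, and for H3.3 15.5%, so that RXR in NCs and Nur77 in ESCs were near them. Of the genes of the pluripotent state, Zfp42 had 6.8 for RXR in ESCs and 9.9 for FGFR1 replicate 2 in NCs, and no other peak. Zfp281, which restrains Nanog in ESCs, had FGFR1 (7.4), RXR (11.7) and Nur77 (8.1) in ESCs, and FGFR1 (8.1 and 13.6) and RXR (10.9) in NCs. Zfp462, which acts in heterochromatin of ESCs, had RXR (10.7) in ESCs and FGFR1 (12.8 and 16.5) in NCs. Zfp296 had FGFR1 (23.5, replicate 2 only) and Nur77 (6.8) in NCs. All of these genes but Zfp281 thus had no FGFR1 peak in ESCs, and each had at least 1 in NCs.

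Zfp57, which with KAP1 keeps imprinted regions methylated, had no peak in ESCs, and FGFR1 (13.5 and 18.1) and Nur77 (8.0) in NCs. Zfp143, an activator that binds promoters, had only FGFR1 in NCs (10.6 and 23.8), as did Zfp260 (12.1 and 22.7). Zfp148, which binds GC-rich promoters, had a peak in every library but FGFR1 in ESCs, with RXR in ESCs at 19.8 and FGFR1 at 11.5 and 38.2. Zfp207, a spindle assembly and splicing factor, had RXR (10.5) and Nur77 (13.2) in ESCs and FGFR1 (22.5 and 79.4) and Nur77 (17.4) in NCs. Zfp410, which controls the level of the chromatin remodeler Chd4, had RXR (15.4) in ESCs and FGFR1 (11.5 and 37.5) in NCs.

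Among genes with neural roles, Zfp423, a cofactor of BMP and retinoic acid signaling, was the only gene of the list without a replicate 2 peak. It had RXR (7.3) and Nur77 (12.3) in ESCs, and FGFR1 replicate 1 (10.5) and Nur77 (19) in NCs. Zfp335 had replicate 2 alone (21.9), and so did the mRNA decay factor Zfp36 (33.3). Zfp24, which acts in myelinating cells, had RXR (7.0) in ESCs and FGFR1 (23.4 and 38.3) in NCs. The RNA-binding protein gene Zfp106 had RXR (12.8) and Nur77 (9.3) in ESCs, and FGFR1 (29.7 and 30.05), RXR (13.8) and H3.3 (9.2) in NCs.

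The remaining genes of the list mostly had FGFR1 in both NC replicates. Zfp131, a BTB zinc finger gene, had only NC peaks, with FGFR1 (22 and 28.5) and H3.3 (9.5). Zfp263 likewise had no ESC peak and had FGFR1 (23.4 and 37.3), RXR (10.9) and Nur77 (9.8) in NCs. Zfp217, which acts with the CoREST repressor, had RXR (9.7) in ESCs and FGFR1 (13.7 and 17.4) in NCs, and Zfp326, a splicing and elongation factor, had RXR (13.2) and FGFR1 (14.9 and 18.9). The pattern of RXR in ESCs followed by FGFR1 in NCs was thus shared by these genes with Zfp24, Zfp410 and Zfp462. Zfp384 had it too (7.5, then 19.2 and 20.8), with Nur77 (10.2) and H3.3 (11.6) in NCs besides. So did Zfp365 (11.2, then 9.3 and 12.7), Zfp276 (7.9, then 11.9 and 17.3) and Zfp219 (6.0, then 11.9 and 35.2). Zfp276 also had Nur77 (7.2) in NCs, and Zfp219 H3.3 (11.4). Over all genes the shares moved the same way, from 42.5% to 23.3% for RXR and from 17.0% to 50.7% and 49.6% for FGFR1. The share of all genes with this pattern was not counted. Its missing peaks are those of the shallower libraries, RXR in NCs (1.87 fragments per kb, 7.09 in ESCs) and FGFR1 in ESCs (2.71, against 4.17 and 6.78). The part of depth in this pattern was not tested. Zfp318 was 1 of the 3 genes with FGFR1 in ESCs (11.9), and had FGFR1 again in NCs (24.2 and 16).

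The partners of these proteins were counted for comparison, with 18 genes of KAP1 silencing and H3.3 handling. FGFR1 had promoter peaks at 8 of them in ESCs and at 15 and 17 in the NC replicates, RXR at 12 and 6, Nur77 at 10 and 4, and H3.3 at 6. As shares these were 44.4%, 83.3% and 94.4% for FGFR1 (all genes 17.0%, 50.7% and 49.6%), 66.7% and 33.3% for RXR (42.5% and 23.3%), 55.6% and 22.2% for Nur77 (25.5% and 25.8%) and 33.3% for H3.3 (15.5%). Trim28, which encodes KAP1, had FGFR1 at 11.2 in ESCs and 21.2 and 64.0 in NCs. Cbx3, encoding a heterochromatin protein, had 11.8 in ESCs and 20.2 and 141.4 in NCs, and Mbd3 had 16.1, 33.2 and 44. Setdb1, the methyltransferase of the pathway, had FGFR1 replicate 1 alone (10.4), and Atrx had replicate 2 alone (14.6).

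The last exon was taken from the transcript with the longest coding sequence, and peaks within 1000 bp of any transcript start were left out. In ESCs, FGFR1 had a last-exon peak at 2 of the 162 genes (1.24%, all genes 0.784%), RXR at 13 (8.03%, all genes 3.26%) and Nur77 at 12 (7.41%, all genes 2.27%). In NCs, FGFR1 had one at 18 (11.1%, all genes 5.78%) in replicate 1 and at 2 (1.24%, all genes 1.29%) in replicate 2, RXR at 2 (1.24%, all genes 1.44%), Nur77 at 10 (6.17%, all genes 2.77%) and H3.3 at 3 (1.85%, all genes 1.14%). The FGFR1 mean in NCs, 6.17% ± 6.98 (SD, n = 2), was 4.94 points above ESCs, less than the spread between its replicates. Since the last exons of these genes are long, rates per length are given beside the shares. Per 1000 kb of last exon there were 25.2 Zfp genes and 13.8 of all genes with a Nur77 peak in ESCs, 27.3 and 19.8 with RXR in ESCs, 37.7 and 35.03 with FGFR1 replicate 1, 20.96 and 16.8 with Nur77 in NCs, and 6.29 and 6.88 with H3.3. For FGFR1 in ESCs the values were 4.19 and 4.75, for FGFR1 replicate 2 4.19 and 7.79, and for RXR in NCs 4.19 and 8.73. Per length, then, the Zfp genes below 500 were above all genes in 4 libraries, by little for FGFR1 replicate 1, and below them in the other 4. The Zfp genes numbered 500 and above had higher rates than these, at 19.67 for H3.3 and 16.09 for RXR in NCs. They were also higher for FGFR1 replicate 1 (44.7), Nur77 in NCs (23.25) and, at 7.15 each, FGFR1 in ESCs and FGFR1 replicate 2. For RXR and Nur77 in ESCs they were lower, at 25.03 and 17.88. The H3.3 rates rest on 11 of those genes and 3 of the 162. These differences were not tested.

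Together the 8 lists had 71 last-exon peaks at 32 of the genes, resting on 6 to 23 fragments with a median of 10, close to the median of all peaks in 7 of the lists. The summit of 49 of them (69.0%) lay in the finger array, which makes up 27.8% of the last-exon length, 12 lay in other coding sequence and 10 in the untranslated part, which makes up 57.3%. Summed over the lists this is 370.0 summits per 1000 kb of finger array, 168.1 in other coding sequence and 36.6 in untranslated sequence. A coding excess was also found over all genes, where the rates were 347.9 per 1000 kb of last-exon coding sequence and 53.7 of untranslated sequence. For the Zfp genes the coding rate was 299.3, lower than that. GC content was higher in both coding parts than in untranslated sequence but did not follow the rates between the coding parts, at 46.9% in the arrays, 47.8% in other coding sequence and 41.1% in untranslated sequence. It also differed between genes, since the arrays of genes with a last-exon peak had a median GC content of 57.4% and those of the other members 45.4%. The part of GC content in the result was not tested.

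**Figure D5:**
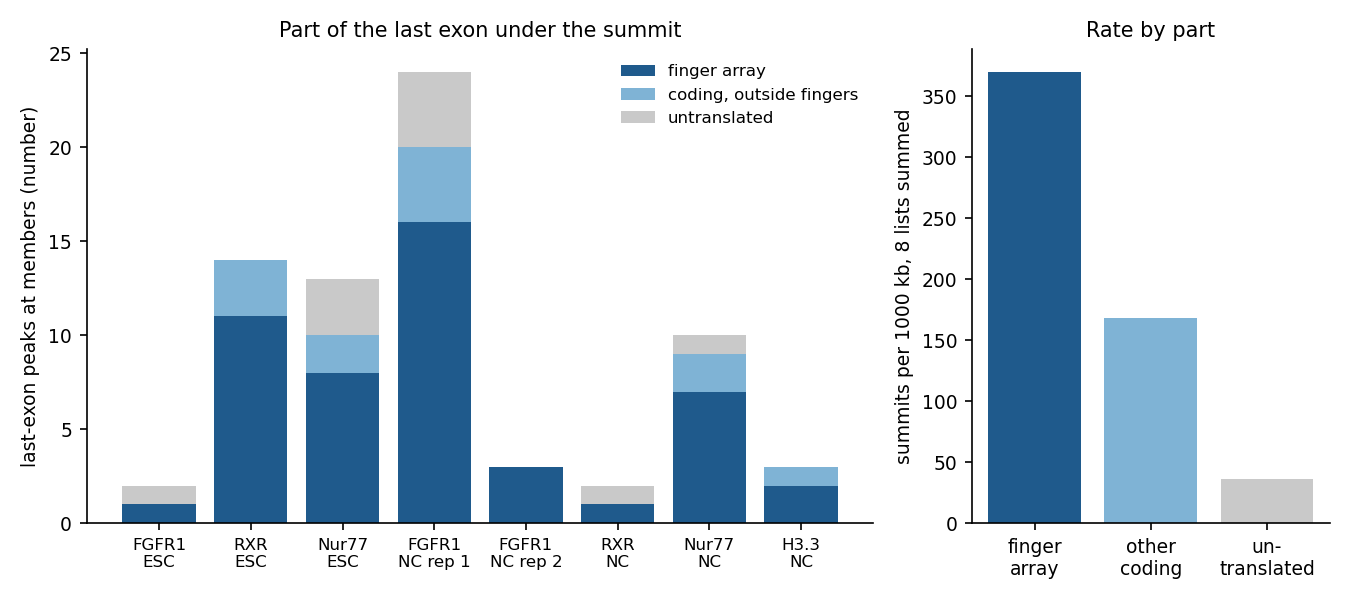
Left, number of last-exon peaks at the Zfp genes below 500 (vertical axis) by library, stacked by the part of the exon under the summit; right, summits per 1000 kb of each part, summed over the 8 lists. Finger arrays hold 49 of the 71 summits, and their rate of 370.0 per 1000 kb is above 168.1 for other coding sequence and 36.6 for untranslated sequence.

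Last-exon peaks were found in at least 2 libraries at 16 genes, and at 12 of these the peaks of separate libraries overlapped. Zfp282, Zfp324, Zfp398 and Zfp467 had them in 4 libraries. H3.3 had them at Zfp282, Zfp316 and Zfp467, at −log10 p values of 9.9, 7.6 and 7.8. At Zfp316 and Zfp282 FGFR1 replicate 1 also had a last-exon peak (11.7 at both), and at Zfp467 both replicates did (10.9, on a tract in untranslated sequence, and 13.9). Zfp398 had RXR (11.8) and Nur77 (7.2) in ESCs and FGFR1 replicate 1 (13.2) and Nur77 (11.2) in NCs. At Zfp239 FGFR1 had 16.4 and 11.7 in the replicates and Nur77 9.7 in NCs. Of the 32 genes, 13 had the KRAB pattern and 3 (Zfp366, Zfp474 and Zfp488) had no promoter peak in any library.

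The strongest last-exon peak was that of FGFR1 replicate 1 at Zfp444, and Zfp324 had overlapping last-exon peaks of 4 libraries, so the coding sequence under these 2 peaks is shown. It is given 5′ to 3′ on the plus strand, which is the coding strand of both, and capitals mark the codons of the cysteines and histidines that hold the zinc in each finger. The Zfp444 peak covers chr7:6189615-6189912 (298 bases) in the last exon, from 6189406 to 6193811, with a −log10 p of 24.2, a fold of 11.99 and 23 fragments. The Zfp324 peak of FGFR1 replicate 1 covers chr7:12971330-12971465 (136 bases) in the last exon, from 12970214 to 12973822, with a −log10 p of 11.7, a fold of 7.41 and 12 fragments.
Zfp444: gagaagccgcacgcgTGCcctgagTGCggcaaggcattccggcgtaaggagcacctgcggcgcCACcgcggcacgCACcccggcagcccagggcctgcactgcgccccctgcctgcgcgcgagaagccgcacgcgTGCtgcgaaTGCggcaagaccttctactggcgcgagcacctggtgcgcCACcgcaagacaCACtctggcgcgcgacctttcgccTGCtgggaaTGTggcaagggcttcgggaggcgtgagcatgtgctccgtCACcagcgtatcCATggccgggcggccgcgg
Zfp324: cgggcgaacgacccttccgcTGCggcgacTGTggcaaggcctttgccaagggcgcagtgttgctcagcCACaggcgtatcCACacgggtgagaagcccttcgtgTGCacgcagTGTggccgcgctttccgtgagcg

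The Zfp444 stretch holds 12 marked codons and that of Zfp324 holds 6. At Zfp444 RXR (6.8) and Nur77 (10.6) also had peaks in ESCs over this stretch. At Zfp324 FGFR1 (8.5), RXR (9.9) and Nur77 (11.2) had overlapping peaks in ESCs, and in NCs FGFR1 replicate 1 did (11.7) but replicate 2, RXR, Nur77 and H3.3 did not. FGFR1 replicate 2 had promoter peaks at both genes.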

How the data were processed

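The authors aligned ChIP-seq reads to mm10 with Bowtie 1.0, kept those that mapped to just 1 place, and called peaks per library with MACS2 at a p limit of 1e-05, without pooling and with no control library named. The deposited values are a ratio (fold of the summit pileup over local background), −log10 of the p-value and q-value at the summit, and a score, which is 10 times the −log10 p without decimals. No per-sample read totals were used, so depth was inferred: fold and −log10 p were solved for whole fragments at the summit and a background, within 0.002, for 100% of peaks. The solver and the count of unique words were tested on simulated data.

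Genes came from GENCODE M21 on GRCm38. Genes named in the text were those of the lists of roles and partners, genes with promoter peaks in all 8 libraries, genes with last-exon peaks in 2 or more libraries or in H3.3, and the 3 strongest promoters per library. Other genes named, from clusters, groups of 5 or fewer, promoters of replicate 2 alone and the partners given by value, were chosen after their values were seen. The members and lists were chosen with earlier results of these data known. Groups came from the sample titles. Exact Clopper-Pearson intervals (95%) and SDs were computed with Python 3.11.15 and SciPy 1.17.1. No p-value was computed. Nothing in the labels says that the FGFR1 replicates came from separate cultures. Alternatives were a −log10 p of at least 10, an equal number of peaks, promoters of 500 bp, 50% of the peak inside, any last exon, no tract peaks (alternating tracts of at least 20 bp), equal depth, and each FGFR1 replicate left out.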

Additional observations from a re-analysis of the deposited data

Results flagged for a closer look

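The share of Zfp genes below 500 with a promoter peak differed in opposite directions between factors under the same contrast of NCs with ESCs, by 52.78 percentage points for FGFR1 (mean of 2 libraries, both positive) and by -31.48 for RXR. This difference between factors was not tested, since RXR had 1 library in each state. At equal depth the RXR difference turned to 12.96, so the opposite directions did not hold there. All genes moved as the Zfp genes did, from 17.0% to 50.7% and 49.6% for FGFR1 and from 42.5% to 23.3% for RXR. The background was 1.87 fragments per kb for RXR in NCs and 7.09 in ESCs.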

How the results depend on the processing

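Of 52 values recomputed under an alternative, 44 stayed within the spread of the main value, 5 moved further and 3 changed sign. Lists longer than the FGFR1 list from ESCs (11378 peaks) were cut to that number, replicate 1 from 46137 and replicate 2 from 14082. The promoter difference was then 33.34 points for FGFR1, mostly from replicate 2, and -6.17 for RXR. The FGFR1 shares were then 18.52% in ESCs, 25.31% in replicate 1 and 78.4% in replicate 2. The last-exon difference for RXR turned to 0.6177. With libraries of a factor scaled to equal depth the RXR differences turned to 12.96 at promoters and 1.235 at last exons. With a −log10 p of at least 10 the RXR differences were -20.37 and -1.234, and H3.3 was at 6.79% of promoters. Each of these 3 alternatives keeps fewer peaks by construction. Leaving out either FGFR1 replicate gave 41.97 to 63.58 points at promoters and 0.0 to 9.875 at last exons, the lower and higher last-exon values coming from replicate 2 and replicate 1 alone. All Nur77 values and all values without tract peaks or with 50% of the peak inside kept within the spread. Last-exon counts rest on at most 18 genes in a library, so small differences between libraries were not detectable. No paired analysis was possible because no numbered replicates are shared between groups with more than 1 library.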
